A study of Homo sapiens with 25 samples.

Results

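Cyclin-dependent kinase (CDK) inhibitor genes encode the proteins that hold back the kinases driving the cell cycle, and their mRNA was followed here through inhibition of the checkpoint kinase CHK1 and degradation of the transcription cofactor TRRAP. The members were taken by name: the CIP/KIP genes CDKN1A (p21), CDKN1B (p27) and CDKN1C (p57), the INK4 genes CDKN2C (p18) and CDKN2D (p19), and CDKN3, which encodes the CDK-associated phosphatase KAP. All 6 had a row among the 28395 genes of the count table, and all 6 were among the 14658 genes that passed the filter on low counts. The cells were A549, an established human lung carcinoma line, with an auxin-inducible degron (mAID) on TRRAP. Every group was synchronized the same way, with 2 mM thymidine over 20 h and then 4 h of release, a time that the series' design text places in S phase. Of the 4 groups, one received DMSO, one the CHK1 inhibitor prexasertib over 3 h, one 1 µM 5-Ph-IAA over 6 h to degrade TRRAP, and one both drugs. No separate group of untagged cells given 5-Ph-IAA is listed, so effects of 5-Ph-IAA itself and of TRRAP loss cannot be told apart. Each group had 3 poly(A) RNA libraries, numbered 1 to 3. The labels list the genotype as WT although the growth protocol names the mAID-TRRAP cells, and they do not say whether the line is 1 clone or whether libraries are separate cultures. The p-values therefore measure the spread between these samples, which may be technical. The unit of prexasertib differs between the RNA and the chromatin labels, so no dose is given.

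CIP/KIP proteins bind cyclin-CDK complexes, mainly those of CDK2, whereas INK4 proteins bind CDK4 and CDK6 alone and keep D-type cyclins away from them. CDKN1A is the classic target gene of p53, and p21 also binds PCNA. The p27 protein is controlled largely by ubiquitin-dependent degradation, p57 is encoded by an imprinted gene best known from development, and KAP removes the activating phosphate of CDK2 and is usually expressed together with mitotic genes. CHK1 restrains CDK activity during S phase through CDC25 and WEE1. TRRAP is a scaffold of histone acetyltransferase complexes, and the series' title connects it with transcription of mitotic genes by MMB, the complex of B-MYB with MuvB.

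The promoters of 3 members are shown because these members had the most calls and different patterns. Each is the 250 bases before a transcript start in RefSeq (GRCh38.p14), on the plus strand. For CDKN3 and CDKN1B this is the gene's first base, whereas the CDKN1A window lies inside the annotated gene (36676463 to 36687332) and precedes an internal start. The letters are shown with capitals at each match to a CHR (the cell cycle genes homology region, an element that MuvB complexes bind), to a CCAAT box or to an E2F site.
CDKN3, chr14:54396757-54397006: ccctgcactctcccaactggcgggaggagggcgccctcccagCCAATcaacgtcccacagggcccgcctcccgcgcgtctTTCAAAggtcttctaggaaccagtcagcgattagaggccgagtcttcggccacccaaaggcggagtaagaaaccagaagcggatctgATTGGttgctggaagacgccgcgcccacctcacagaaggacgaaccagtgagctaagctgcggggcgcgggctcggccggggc
CDKN1B, chr12:12717118-12717367: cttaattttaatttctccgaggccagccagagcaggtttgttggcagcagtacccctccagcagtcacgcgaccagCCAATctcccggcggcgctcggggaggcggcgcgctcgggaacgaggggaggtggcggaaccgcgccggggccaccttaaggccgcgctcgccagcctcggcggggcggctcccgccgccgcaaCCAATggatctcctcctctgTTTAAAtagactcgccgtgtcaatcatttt
CDKN1A, chr6:36678464-36678713: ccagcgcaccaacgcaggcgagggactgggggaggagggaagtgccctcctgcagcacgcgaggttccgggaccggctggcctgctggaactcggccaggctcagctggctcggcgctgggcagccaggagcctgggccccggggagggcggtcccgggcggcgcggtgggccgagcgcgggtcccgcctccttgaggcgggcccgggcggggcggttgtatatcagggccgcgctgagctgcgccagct
Motifs were searched on both strands, as TTTGAA or TTTAAA for the CHR, CCAAT for the CCAAT box, TTTCGCGC or TTTGGCGC for the E2F site, GGGCGG for the GC box and CACGTG for the E-box. The CDKN3 window held 1 CHR (TTTGAA on the minus strand, 170 bases before the start) and 2 CCAAT boxes, 208 and 83 bases before the start. The CDKN1B window held 1 CHR (TTTAAA, 30 bases before the start), CCAAT boxes at 174 and 50 bases and a GC box at 71 bases. None of the CHR, CCAAT and E2F letters matched in the CDKN1A window, which held 4 GC boxes at 104, 94, 45 and 40 bases. Over all 35097 promoter windows of this length, 21.9% held a CHR, 32% a CCAAT box, 42.6% a GC box and 0.969% an E2F site. Windows were found for 5 of the 6 members, and CDKN1C had none. Of the others, CDKN2D and 1 of the 3 CDKN2C windows held a CCAAT box, 2 CDKN2C windows held an E-box (6.34% of all windows do), and no window of either gene held a CHR. These matches describe letters and not binding.

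Total counts per library ran from 10830048 to 17789482. Levels below are read counts divided by library size in the usual CPM unit, after TMM scaling, which sets libraries to a common level over most genes, and changes are log2 fold changes from edgeR. TRRAP mRNA cannot check the labels, because the degron acts on the protein. It stood at 83.2 CPM in DMSO and 133 CPM with 5-Ph-IAA, a rise of 0.67 ± 0.14 (log2, SE; edgeR adjusted p = 0.0042). The keratins KRT7, KRT8 and KRT18 had means of 3015, 3251 and 2114 CPM on library size alone, and 6 of 7 epithelial markers exceeded 1 CPM, all but EPCAM at 0.807 CPM. Of 7 alveolar type II markers 2 did, ABCA3 at 68.4 CPM and LAMP3 at 5.14 CPM, while SFTPA1 and SFTPB were at 0. None of 5 blood markers and none of 4 endothelial markers exceeded 1 CPM, and 2 of 5 fibroblast markers did, with DCN at 0. All 4 neuron markers were above 1 CPM, led by TUBB3 at 284 CPM and SNAP25 at 48.4 CPM, and the summed level of these 4 ran from 300.3 to 387 CPM over the groups. TUBB3 fell with 5-Ph-IAA by 0.61 on the log2 scale (edgeR adjusted p = 0.00015), and the part of this list in the results was not tested. The 4 libraries numbered 3 stood apart within their groups: their first principal component scores were 30.1 to 35.1, against -21.2 to -13.8 for the others. CDKN1A, CDKN1B and CDKN3 were lowest in the library numbered 3 in all 4 groups. A fit with the number as a block is given wherever it changes a call.

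CDKN1A rose with prexasertib, and the highest levels were reached with both drugs. In DMSO its level was 1164, 1182 and 1031 CPM in libraries 1 to 3, and with prexasertib it was 1602, 1526 and 1389 CPM. With 5-Ph-IAA it was 1034, 1049 and 942 CPM, and with both drugs 1787, 1730 and 1609 CPM. Every library with prexasertib lay above every library without it, whereas the DMSO and 5-Ph-IAA ranges overlapped. Prexasertib raised CDKN1A by 0.42 ± 0.083 over DMSO (log2, SE; 1.34-fold; edgeR adjusted p = 0.011), a call lost without prexasertib replicate 1 (edgeR adjusted p = 0.064). On top of 5-Ph-IAA it raised CDKN1A by 0.76 ± 0.084 (1.69-fold; edgeR adjusted p = 0.00022). Both drugs against DMSO gave 0.60 ± 0.083 (1.52-fold; edgeR adjusted p = 0.00022). In bulk RNA a larger share of cells expressing a gene and more RNA per cell cannot be told apart, here and below.

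5-Ph-IAA alone left CDKN1A at -0.16 ± 0.083 against DMSO (log2, SE; edgeR adjusted p = 0.19), and at 0.18 ± 0.083 when prexasertib was present (edgeR adjusted p = 0.15). With the block, both passed: -0.16 ± 0.046 (edgeR adjusted p = 0.0041) and 0.18 ± 0.045 (edgeR adjusted p = 0.0011). The 5-Ph-IAA difference was negative without prexasertib and positive with it in all 3 library numbers, at -0.17, -0.17 and -0.13 without it and 0.16, 0.18 and 0.21 with it (log2 CPM). That split of signs rests on the scaling: on library size alone, where the median of all genes shifted by 0.158 and 0.139 in these 2 comparisons, the differences were -0.0016 (edgeR adjusted p = 0.99) and 0.32 (edgeR adjusted p = 0.023). The test of that difference is the interaction of the 2 drugs, the prexasertib change with 5-Ph-IAA minus the change without it. For CDKN1A it was 0.34 ± 0.12 (95% interval 0.09 to 0.59; unadjusted p = 0.012), and it did not pass over all genes without the block (edgeR adjusted p = 1.00). With the block it was 0.34 ± 0.064 (95% interval 0.21 to 0.47; edgeR adjusted p = 0.0022), without the libraries numbered 3 it was 0.32 ± 0.071 (edgeR adjusted p = 0.013), and on library size alone it was 0.32 ± 0.13 with no call. Library by library it was 0.33, 0.35 and 0.34 (log2 CPM), so the 3 numbers differed little. DINOL, a long non-coding RNA on the opposite strand, overlaps CDKN1A by 951 bases. It has no row in the count table, so its own level cannot be seen. The strand setting of the counting is not given in the sources used here, so reads of the pair may be mixed.

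CDKN1B fell with 5-Ph-IAA, with or without prexasertib. Its level was 68.6, 66.5 and 53.6 CPM in DMSO and 75.4, 75.3 and 70.9 CPM with prexasertib. It was 39.1, 41.0 and 33.4 CPM with 5-Ph-IAA and 44.3, 45.8 and 37.1 CPM with both drugs. All 6 libraries with 5-Ph-IAA lay below all 6 without it. The fall was 0.73 on the log2 scale against DMSO (SE 0.11; to 0.602 of the level; edgeR adjusted p = 0.00055) and 0.80 under prexasertib (SE 0.11; to 0.573; edgeR adjusted p = 0.00034). Both drugs against DMSO gave -0.57 ± 0.11 (edgeR adjusted p = 0.0025). These 3 calls held in every alternative run. The prexasertib difference was smaller: 0.23 ± 0.11 against DMSO (edgeR adjusted p = 0.31), which passed with the block at 0.24 ± 0.072 (edgeR adjusted p = 0.015) but not without the libraries numbered 3 (0.16, edgeR adjusted p = 0.19), and 0.16 ± 0.11 on top of 5-Ph-IAA (edgeR adjusted p = 0.60). The interaction for CDKN1B was -0.07 with a 95% interval of -0.42 to 0.27.

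**Figure D1:**
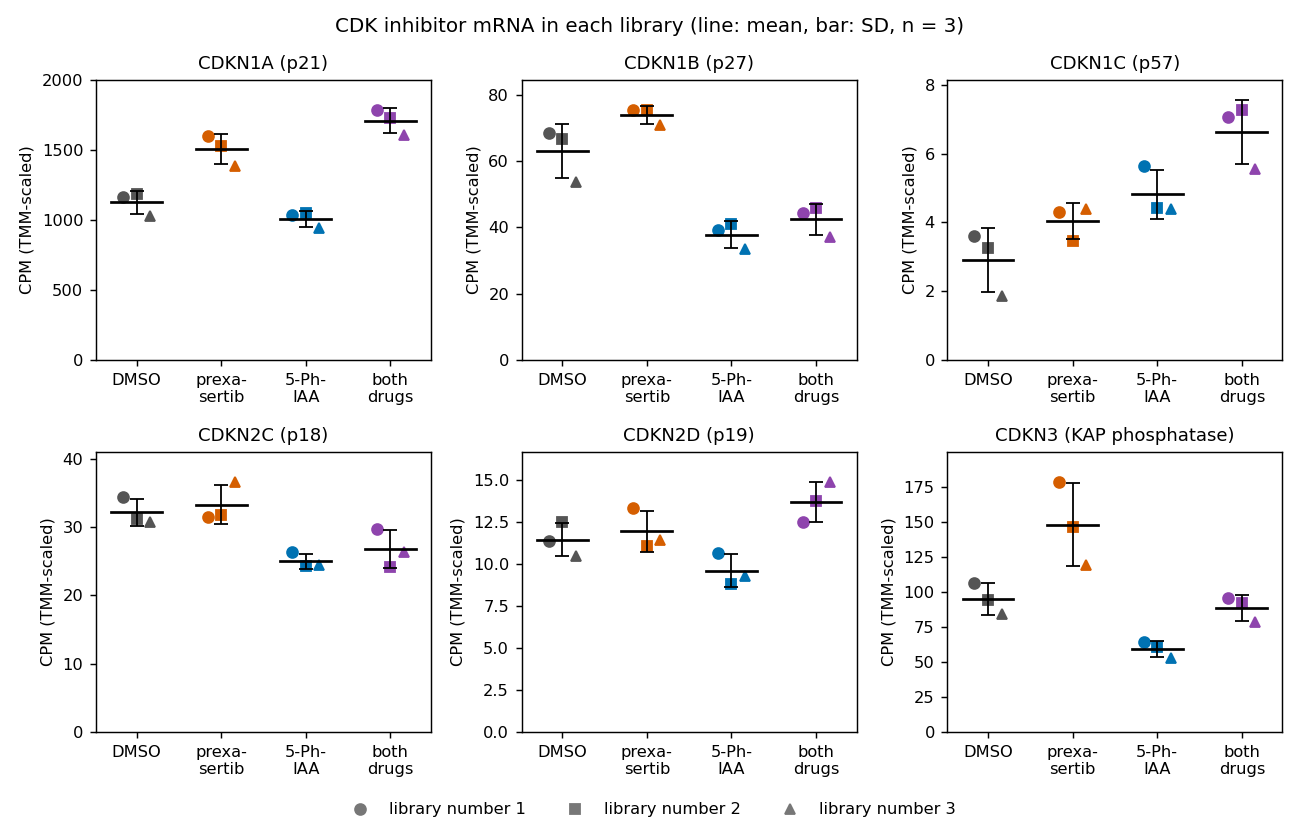
Level of each CDK inhibitor mRNA in the 12 libraries (vertical axis: CPM after TMM scaling, from 0; horizontal axis: the 4 groups), with lines at group means and bars of 1 SD over 3 libraries; the shape of a point gives the library number. All libraries with prexasertib lie above those without it for CDKN1A, and all libraries with 5-Ph-IAA lie below those without it for CDKN1B.

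Because p21 and p27 bind the same kinases, the reads of their genes were also set against each other within each library, a ratio that no scaling between libraries can change. The DMSO libraries held 18 ± 1.14 CDKN1A reads per CDKN1B read and the prexasertib libraries 20.4 ± 0.828 (SD, n = 3). After 5-Ph-IAA the ratio was 26.7 ± 1.31, and after the 2 drugs together 40.5 ± 2.80. The group ranges were 17.0 to 19.2, 19.6 to 21.2, 25.6 to 28.2 and 37.8 to 43.4, and they did not overlap. This is a ratio of reads and not of molecules, since transcript lengths were not used.

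**Figure D2:**
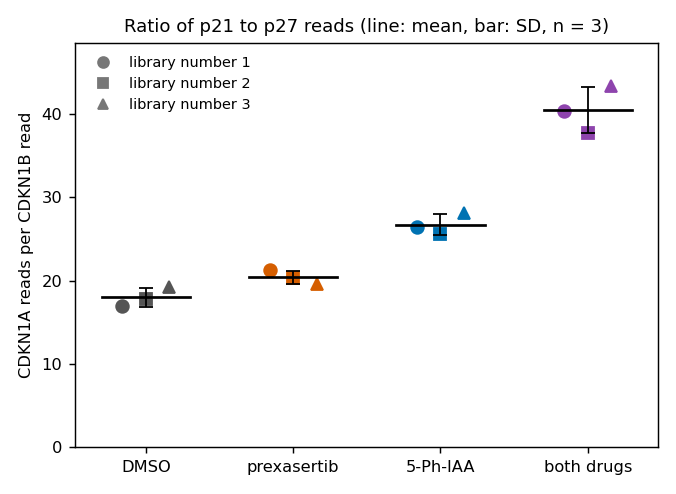
CDKN1A reads per CDKN1B read in each library (vertical axis, from 0) by group (horizontal axis), with lines at group means and bars of 1 SD over 3 libraries. The mean rises from 18 in DMSO to 40.5 with both drugs, and no 2 groups overlap.

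CDKN1C was the least counted member, with 24 to 103 reads per library, and its values are correspondingly less precise. Its level was 3.62, 3.26 and 1.87 CPM in DMSO and 4.31, 3.45 and 4.40 CPM with prexasertib. It was 5.65, 4.42 and 4.40 CPM with 5-Ph-IAA and 7.07, 7.28 and 5.56 CPM with both drugs. The libraries with both drugs were all above those of DMSO and prexasertib, and the lowest single value was DMSO library 3. Both drugs raised CDKN1C by 1.18 ± 0.25 over DMSO (log2, SE; 2.27-fold, the largest change of any member in any comparison; edgeR adjusted p = 0.0032), in every alternative run. The 5-Ph-IAA difference was 0.72 ± 0.25 against DMSO (edgeR adjusted p = 0.051) and 0.71 ± 0.24 under prexasertib (edgeR adjusted p = 0.056), with values of 0.55 (edgeR adjusted p = 0.078) and 0.87 (edgeR adjusted p = 0.0045) without the libraries numbered 3. With the block both passed, at 0.73 ± 0.22 (edgeR adjusted p = 0.0061) and 0.70 ± 0.21 (edgeR adjusted p = 0.0057), as they did with DESeq2 (adjusted p = 0.041 and 0.043). The prexasertib differences were 0.48 ± 0.25 without 5-Ph-IAA (edgeR adjusted p = 0.37) and 0.46 ± 0.23 with it (edgeR adjusted p = 0.42). The first was 0.24 without DMSO replicate 3 and 0.18 without the libraries numbered 3. The 3 CIP/KIP genes thus had 3 different profiles across the same libraries.

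Of the INK4 genes, CDKN2C was lower with 5-Ph-IAA. Its level was 34.4, 31.2 and 30.7 CPM in DMSO, 31.5, 31.8 and 36.6 CPM with prexasertib, 26.3, 24.3 and 24.5 CPM with 5-Ph-IAA, and 29.7, 24.1 and 26.4 CPM with both drugs. All 6 libraries with 5-Ph-IAA were below all 6 without it. The fall was 0.36 on the log2 scale against DMSO (SE 0.10; edgeR adjusted p = 0.021), a call lost without DMSO replicate 1 or 5-Ph-IAA replicate 2 (edgeR adjusted p up to 0.086). Under prexasertib it was 0.31 lower (SE 0.10; edgeR adjusted p = 0.0497), a call lost in 11 of 12 fits that left out 1 library (edgeR adjusted p up to 0.18). With the block, these were -0.36 ± 0.092 (edgeR adjusted p = 0.0014) and -0.31 ± 0.094 (edgeR adjusted p = 0.0068), and both drugs against DMSO passed too, at -0.26 ± 0.093 (edgeR adjusted p = 0.019, against 0.075 without it). On library size alone the 2 differences were -0.20 and -0.17 and neither passed, and without the libraries numbered 3 the one under prexasertib did not pass (-0.23, edgeR adjusted p = 0.12). The prexasertib change was 0.05 ± 0.10 over DMSO, with a 95% interval of -0.17 to 0.27.

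CDKN2D passed no comparison in the edgeR fit without the block. Its level was 11.4, 12.5 and 10.5 CPM in DMSO, 13.3, 11.1 and 11.4 CPM with prexasertib, 10.7, 8.84 and 9.33 CPM with 5-Ph-IAA, and 12.5, 13.8 and 14.9 CPM with both drugs. The 5-Ph-IAA libraries were the lowest as a group and those with both drugs the highest, with neighbouring groups overlapping. Prexasertib on top of 5-Ph-IAA gave 0.51 ± 0.13 (log2, SE; edgeR adjusted p = 0.064), which passed with the block at 0.52 ± 0.13 (edgeR adjusted p = 0.0054) and with DESeq2 (adjusted p = 0.024), but not without the libraries numbered 3 (0.41, edgeR adjusted p = 0.083), while prexasertib against DMSO gave 0.06 ± 0.14 (edgeR adjusted p = 0.89). The interaction was 0.45 ± 0.19 (unadjusted p = 0.034; edgeR adjusted p = 1.00, and 0.35 with the block). By library number it was -0.0044, 0.80 and 0.55 (log2 CPM), so number 1 showed none of it. The other INK4 genes, CDKN2A and CDKN2B, had 0 counts in all 12 libraries, which allows up to 0.277 CPM in the shallowest library (3 counts, counting error only). A549 is known to lack CDKN2A.

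CDKN3 rose with prexasertib and fell with 5-Ph-IAA. Its level was 106.5, 93.9 and 83.9 CPM in DMSO, 178.5, 146.1 and 119.4 CPM with prexasertib, 64.0, 60.4 and 52.8 CPM with 5-Ph-IAA, and 95.5, 91.8 and 78.3 CPM with both drugs. The prexasertib group was highest and the 5-Ph-IAA group lowest without overlap, and the DMSO group overlapped the group with both drugs. Prexasertib raised CDKN3 by 0.64 ± 0.14 over DMSO (log2, SE; 1.56-fold; edgeR adjusted p = 0.018) and by 0.58 ± 0.14 on top of 5-Ph-IAA (edgeR adjusted p = 0.046). The first call was lost in 4 of 12 fits that left out a library (without DMSO 2 or 3, or prexasertib 1 or 2, edgeR adjusted p up to 0.082). It was also lost in the compared groups alone (edgeR adjusted p = 0.062). The second call was lost in 8 of 12 such fits (edgeR adjusted p up to 0.17). It was also lost on library size alone (edgeR adjusted p = 0.093) and with limma-voom (adjusted p = 0.054). With the block the 2 changes were 0.64 ± 0.061 (edgeR adjusted p = 1.6e-11) and 0.58 ± 0.064 (edgeR adjusted p = 1.0e-09). 5-Ph-IAA lowered CDKN3 to 0.624 of the DMSO level (-0.68 ± 0.14; edgeR adjusted p = 0.0039) and to 0.598 of the prexasertib level (-0.74 ± 0.14; edgeR adjusted p = 0.0024), in every alternative run. Against DMSO, both drugs left it at -0.10 ± 0.14 (95% interval -0.40 to 0.20). The interaction was -0.06, with a 95% interval of -0.48 to 0.36.

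**Figure D3:**
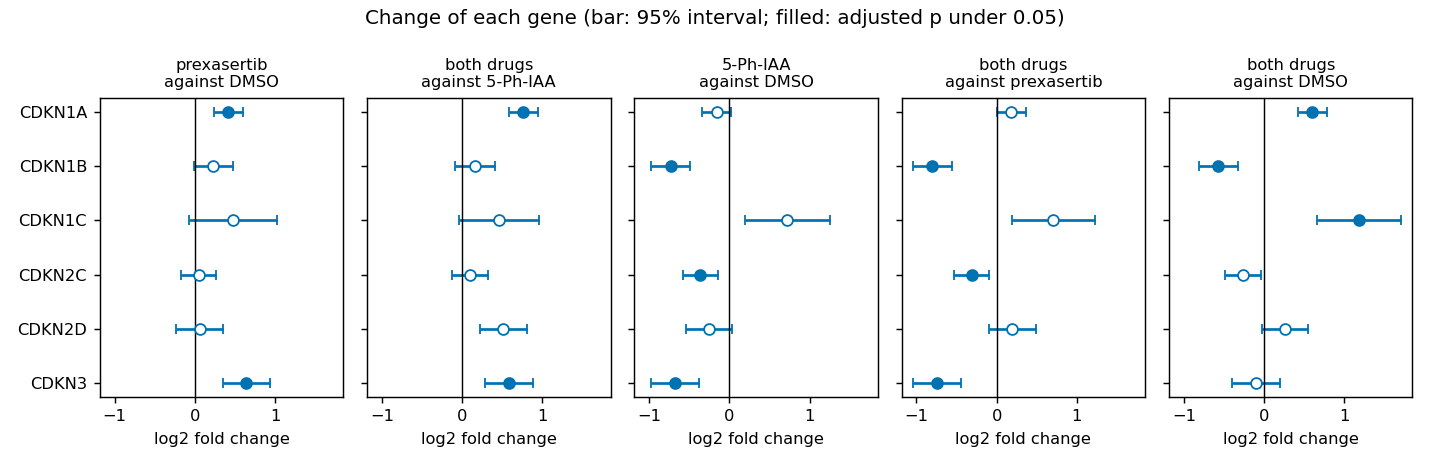
Log2 fold change of each member (horizontal axis) in 5 comparisons (panels), with 95% intervals; filled points passed an edgeR adjusted p under 0.05 in the fit without the block. CDKN1A and CDKN3 are filled on the right in both prexasertib panels, and CDKN1B, CDKN2C and CDKN3 are filled on the left in both 5-Ph-IAA panels.

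Counted over the family, prexasertib against DMSO called 2 of 6 members, both higher, beside 4.73% of all genes called in either direction (2.36% higher and 2.37% lower). On top of 5-Ph-IAA, prexasertib also called 2 members higher, beside 2.42% of all genes (1.17% higher and 1.26% lower). 5-Ph-IAA called 3 of 6 lower against DMSO, beside 21.8% of all genes (9.65% higher and 12.2% lower), and 3 of 6 lower under prexasertib, beside 18.2% (7.85% higher and 10.4% lower). Both drugs against DMSO called 2 higher and 1 lower, beside 25.9% of all genes (11.8% higher and 14.2% lower). For the interaction, edgeR called 0 members and 0% of all genes, as against 2 of 6 members and 519 of 14658 genes at an unadjusted p under 0.05. DESeq2 and limma-voom also called 0 members (5 and 0 genes), and the block called 1 member, CDKN1A, beside 0.655% of all genes. With the block the counts of members called were 3, 3, 5, 5 and 4 of 6 in the first 5 comparisons, in the order given, beside 18.1%, 15.5%, 42.6%, 37.1% and 44.7% of all genes. Leaving out the libraries numbered 3 gave 2, 2, 4, 4 and 4, beside 14.2%, 13.9%, 36%, 30.5% and 37.5%. The median log2 fold change of the 6 was 0.33 with prexasertib and -0.31 with 5-Ph-IAA, each against DMSO and beside -0.0037 and 0.0058 over all genes tested. These comparisons share groups, so they are not independent of each other.

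**Figure D4:**
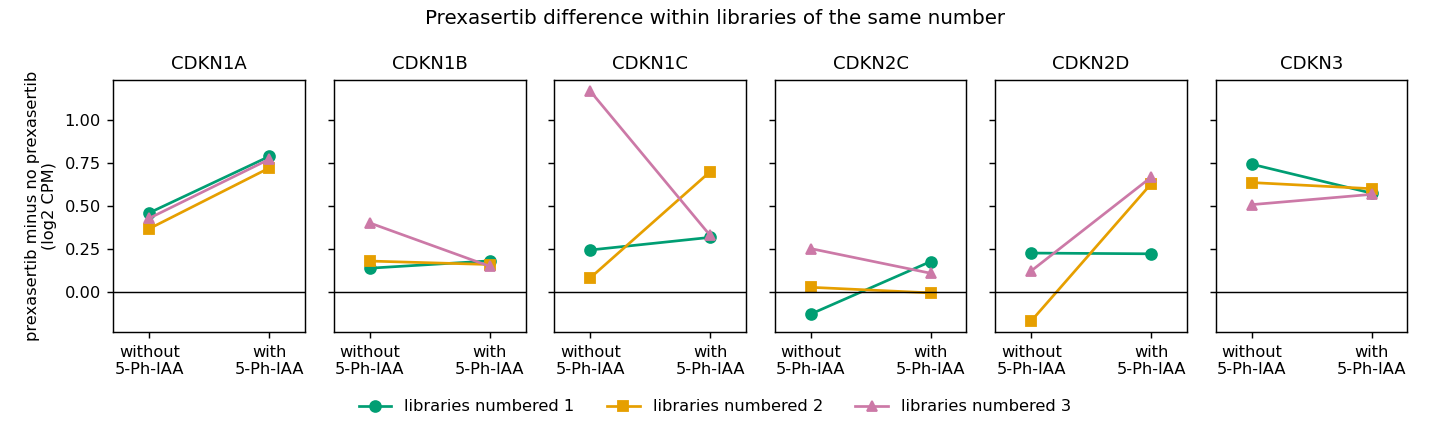
Difference between the library with prexasertib and the library without it that has the same number (vertical axis: log2 CPM), without and with 5-Ph-IAA (horizontal axis), for each member; lines join libraries of 1 number. For CDKN1A the 3 lines run together, from 0.37 to 0.46 up to 0.72 to 0.79, whereas lines cross for every other member.

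The order of the levels also set the members apart. CDKN1A ran from 5-Ph-IAA through DMSO and prexasertib to both drugs, and only the first pair overlapped. CDKN1B, CDKN2C and CDKN3 shared the order 5-Ph-IAA, both drugs, DMSO, prexasertib. For CDKN1B the first pair overlapped, for CDKN2C the first and the last pair, and for CDKN3 the middle pair. CDKN1C ran from DMSO through prexasertib and 5-Ph-IAA to both drugs, with the first and the last pair overlapping and the middle pair meeting at 4.40 CPM. CDKN2D had the order of CDKN1A, but each neighbouring pair overlapped. Over the 12 libraries, log2 CPM of CDKN1B correlated with CDKN3 at Pearson r = 0.88 and with CDKN2C at 0.85, and with CDKN1C at -0.45. These libraries share groups and numbers, so the coefficients are descriptions.

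CDKN1A was set beside 24 other p53 target genes. Over all genes tested, prexasertib called 2.36% higher and 2.37% lower against DMSO. For 5-Ph-IAA these shares were 9.65% and 12.2%, and for both drugs 11.8% and 14.2%. With the block, 18.1%, 42.6% and 44.7% of all genes were called in either direction, in the same order. With prexasertib, 10 of the 24 rose and 1 fell, with a median of 0.24, and with the block 17 rose and 1 fell. BTG2, an antiproliferative factor, rose by 0.97 ± 0.11 (edgeR adjusted p = 0.00018), and GDF15, a secreted stress cytokine, by 0.67 ± 0.081 (edgeR adjusted p = 0.00043). ZMAT3, an RNA-binding protein, fell by 0.81 (SE 0.17; edgeR adjusted p = 0.016), which was lost without DMSO 1 or 2 or prexasertib 2 or 3 (up to 0.072). With 5-Ph-IAA, 8 fell and none rose (median -0.26; 17 fell with the block), among them AEN, a nuclease, at -0.48 ± 0.059 and PHLDA3, an inhibitor of AKT signalling, at -0.55 ± 0.073. CDKN1A itself, at -0.16, lay above 15 of the 24. Both drugs against DMSO raised 8 and lowered 3, with GDF15 at 0.88 ± 0.081 and XPC, a DNA damage sensor, at 0.45 ± 0.067 (edgeR adjusted p = 0.00033), and ZMAT3 at -0.67 ± 0.17. The 3 lower genes became 0 without DMSO 1 and 1 without DMSO 2, both drugs 1 or both drugs 3. The block called 16 higher and 3 lower.

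On top of 5-Ph-IAA, prexasertib raised 11 of the 24 and lowered none (median 0.41; with the block 21 rose and 1 fell). In that comparison 2.42% of all genes were called in either direction, and 15.5% with the block. The median interaction of the list was 0.19, with 21 of 24 values above 0, beside a median of 0.011 and 52.1% above 0 over all genes tested. The CDKN1A value of 0.34 was higher than those of 20 of the 24. None of the list passed the interaction test without the block, and 4 passed with it: PHLDA3 at 0.55, AEN at 0.47, TP53INP1 at 0.46 and BBC3, which encodes PUMA, at 0.46 (edgeR adjusted p from 1.6e-05 to 0.017). The block called 0.655% of all genes for the interaction. The 3 genes whose log2 CPM was most like that of CDKN1A over the 12 libraries, out of 12553 compared, were GDF15 (r = 0.97), SESN2 (r = 0.96) and PPM1D (r = 0.95), all of this list. PPM1D encodes the phosphatase WIP1, which acts against p53 signalling.

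CDKN3 was set beside 20 mitotic genes. With prexasertib 17 of them rose and none fell (median 0.53), led by the kinesin KIF20A at 1.17 ± 0.059 and CDC20, an activator of the anaphase-promoting complex, at 0.98 ± 0.086. The CDKN3 change of 0.64 was larger than those of 15 of the 20. With 5-Ph-IAA all 20 fell (median -1.02), KIF20A at -1.68 ± 0.060 and the ubiquitin-conjugating enzyme UBE2C at -1.33 ± 0.074, and CDKN3 at -0.68 fell less than 17 of the 20. Both drugs against DMSO lowered 11 (median -0.34), such as the spindle checkpoint kinase BUB1B at -0.72 ± 0.074 and the spindle protein NUSAP1 at -0.57 ± 0.060, whereas CDKN3 stood at -0.10. Under prexasertib, 5-Ph-IAA lowered all 20 (median -0.83), and prexasertib raised 16 on top of 5-Ph-IAA (median 0.65). Over all genes tested, prexasertib called 2.36% higher against DMSO and 1.17% higher on top of 5-Ph-IAA. The shares called lower were 14.2% for both drugs against DMSO, 12.2% for 5-Ph-IAA against DMSO and 10.4% for 5-Ph-IAA under prexasertib. The all-gene medians of these comparisons lay between -0.0037 and 0.015. The genes most like CDKN3 over the 12 libraries were GPSM2 and ASPM, both known from spindle orientation and assembly, and the co-chaperone DNAJB1 (all r = 0.98).

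**Figure D5:**
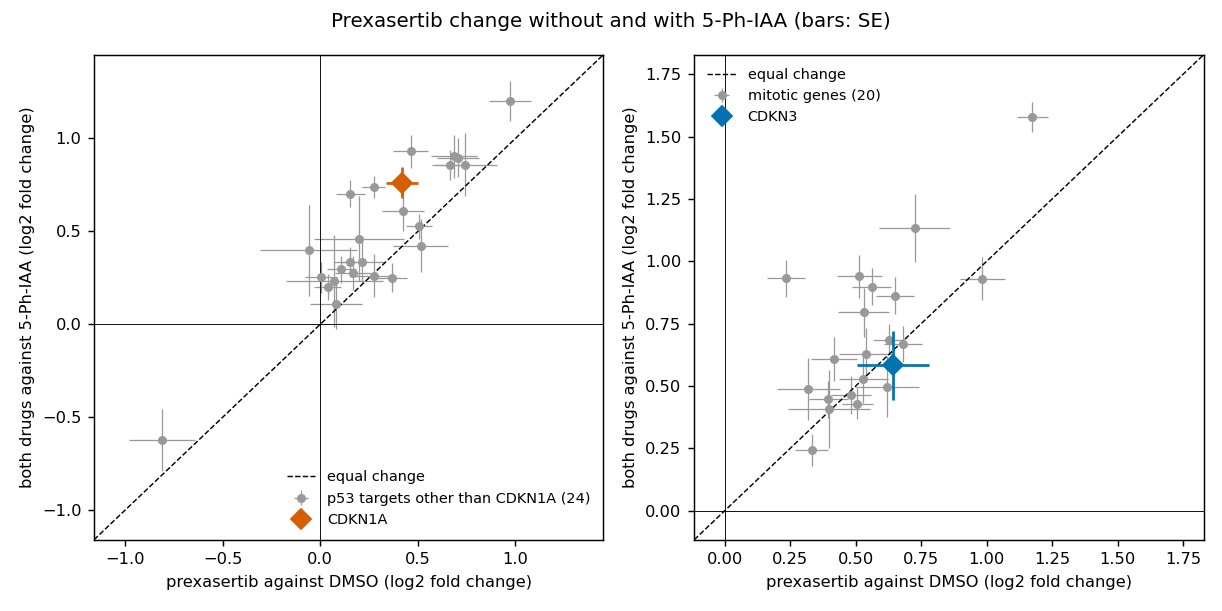
Log2 fold change with prexasertib against DMSO (horizontal axis) and with both drugs against 5-Ph-IAA (vertical axis), with SE bars, for CDKN1A among 24 p53 targets (left) and CDKN3 among 20 mitotic genes (right); the dashed line marks equal change. CDKN1A, at 0.42 and 0.76, lies above the line, as do 21 of the 24 p53 targets, and CDKN3, at 0.64 and 0.58, lies near it.

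The genes most like CDKN1B were SEC61A1, a subunit of the protein translocon, at r = 0.99, ARHGAP11A at r = 0.99, and ZNF146 at r = 0.98. For CDKN2C they were LIG1, the DNA ligase of replication, ELOVL6, a fatty acid elongase, and AP3D1 (r = 0.95 to 0.93), and for CDKN1C they were KBTBD3, C20orf204 and RABGGTA (r = 0.94 to 0.93). None of these is in a list used here.

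The targets of the inhibitors are the cyclins and CDKs. Of 11 tested, 6 fell with 5-Ph-IAA and none rose (median -0.49), among them the mitotic cyclins CCNB2 at -1.06 ± 0.073 and CCNB1 at -1.12 ± 0.088. With prexasertib the median of the list was -0.20. CCNB2 at 0.65 ± 0.072 and CCNB1 at 0.70 ± 0.087 were among 3 that rose, and CDK6, a kinase held by INK4 proteins, fell by 0.49 (SE 0.12; edgeR adjusted p = 0.032). The CDK6 call was lost in 5 fits that left out 1 library (DMSO 1 or 3, or any of prexasertib; up to 0.14), and with the block 6 of the list fell. Both drugs lowered 7 against DMSO (median -0.50), among them cyclin D1 (CCND1) at -0.50 ± 0.066 and cyclin A2 (CCNA2) at -0.66 ± 0.099. Over all genes tested, 21.8% were called with 5-Ph-IAA, 4.73% with prexasertib and 25.9% with both drugs, each against DMSO. The block called 18.1% with prexasertib.

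Genes for the degradation of these inhibitors and for their transcription were read as mRNA only, and the inhibitor proteins were not measured in these files. DTL, which directs the CUL4 ligase to p21 bound to PCNA, fell with prexasertib by 0.99 (SE 0.16; edgeR adjusted p = 0.0036) and with both drugs by 1.59 (SE 0.17; edgeR adjusted p = 2.7e-05), each against DMSO. Of the 13 genes of this list, prexasertib raised 2, CDC20 and PCNA (0.33 ± 0.077), and lowered DTL. The PCNA call was lost in 5 fits that left out 1 library (DMSO 1 or 2, or any of prexasertib, edgeR adjusted p up to 0.11). It was also lost in the compared groups alone (edgeR adjusted p = 0.054). 5-Ph-IAA lowered 6 and raised none (3 without DMSO 2 or 3, or 5-Ph-IAA 1 or 2), with CDC20 at -1.08 ± 0.087 and the ligase scaffold CUL4A at -0.44 ± 0.063. On library size alone 2 rose and 3 fell. Both drugs lowered 3, CUL4A among them at -0.34 ± 0.063, and raised 1, RNF123 (0.50 ± 0.11), a ligase for p27. With the block 8 fell and 1 rose with 5-Ph-IAA, and 6 fell and 1 rose with both drugs. In either direction, both drugs called 25.9% of all genes tested against DMSO, 5-Ph-IAA 21.8% and prexasertib 4.73%. The block raised these shares to 44.7% for both drugs and 42.6% for 5-Ph-IAA.

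Of 18 transcription regulators of these genes, 5-Ph-IAA raised 3 and lowered 3. FOXO4, known as an activator of CDKN1B, rose by 1.10 ± 0.28 (edgeR adjusted p = 0.014, lost without DMSO 1 or 3 or 5-Ph-IAA 2, up to 0.068), and MYC, a repressor of CDKN1A, by 0.36 ± 0.10 (edgeR adjusted p = 0.020, lost without DMSO 1 or 2 or 5-Ph-IAA 1 or 3, up to 0.095). Leaving out any 1 library of DMSO or 5-Ph-IAA left 0 or 1 higher and 2 or 3 lower calls, and the block gave 4 and 8. Prexasertib lowered 2, TFAP4, a repressor of CDKN1A, at -0.79 ± 0.14, and FOXO3 at -0.58 ± 0.11 (edgeR adjusted p = 0.010). The FOXO3 call was lost without prexasertib 2 (edgeR adjusted p = 0.053) and in the compared groups alone (edgeR adjusted p = 0.063). Leaving out prexasertib 3 gave 1 higher and 3 lower calls, and the block gave 2 and 8. Both drugs raised 3 and lowered 8, with TFAP4 at -2.11 ± 0.15 (edgeR adjusted p = 2.0e-06) and FOXO4 at 1.39 ± 0.28. Among all genes tested, 21.8% were called with 5-Ph-IAA, 4.73% with prexasertib and 25.9% with both drugs, each against DMSO. The block called 42.6% with 5-Ph-IAA and 18.1% with prexasertib.

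Of 13 genes for pocket proteins, MuvB and their partners, which act downstream of the CDKs, prexasertib lowered 2 and raised none. RBL1, the pocket protein p107, fell by 1.05 (SE 0.078; edgeR adjusted p = 2.2e-05), and LIN54, the DNA-binding subunit of MuvB, by 0.60 (SE 0.15; edgeR adjusted p = 0.040). The LIN54 call was lost in 8 of 12 fits that left out 1 library (edgeR adjusted p up to 0.18) and in the compared groups alone (edgeR adjusted p = 0.10). 5-Ph-IAA lowered 5, with FOXM1 at -0.43 ± 0.091 and the E2F partner TFDP1 at -0.31 ± 0.072, and 3 without DMSO 2 or 3 or 5-Ph-IAA 1 or 2. On library size alone 1 rose and 2 fell, and TFDP1 did not pass (edgeR adjusted p = 0.099). Both drugs lowered 5 (8 with the block), with RBL1 at -1.06 ± 0.077 and the histone-binding MuvB subunit RBBP4 at -0.51 ± 0.096. Of all genes tested, both drugs called 14.2% lower against DMSO, 5-Ph-IAA 12.2% and prexasertib 2.37%. For both drugs against DMSO, the block called 44.7% of all genes in either direction.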

How the data were processed

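Poly(A) RNA of 12 libraries in 4 groups was analysed, and the 13 CUT&RUN samples are not analysed here. The values are raw read counts per gene, deposited by the authors without normalization. The tools named in the submitters' processing notes include featureCounts 2.0.8 and limma 3.58.1, with hg38 as the build. For aligner, annotation and strand setting, the entry is: not given in the sources used here. Gene numbers were matched to RefSeq names (27745 of 28395 rows). Groups follow the sample titles.

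The main test was edgeR 4.0.16 (R 4.3.3): filterByExpr (minimum count 10, minimum total 15; 14658 genes with 99.92% of the counts), TMM factors (0.925 to 0.978 in the groups that lacked 5-Ph-IAA, 1.02 to 1.1 in the others), and a robust quasi-likelihood fit with a term per group over all 12 libraries. Adjusted p-values are Benjamini-Hochberg over all genes tested; the threshold for a call was 0.05. SE is the log2 fold change divided by the square root of F. The biological coefficient of variation was 12.8%. A prior count of 2 entered log2 CPM. Before the calls were made, the fit was run on simulated counts with changes placed in the prexasertib group alone. That simulation held no effect of library number and no 5-Ph-IAA change, so it cannot show how these affect the calls. Total counts per library (10830048 to 17789482) set the precision, and limits from counts cover counting error only, since reads carry no molecular identifiers.

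The library number was checked as a block. Deviations from group means correlated at 0.22 to 0.63 over all 18 pairs of libraries with the same number (titles give the numbers), which met the rule for pairing (every pair over 0.1). Libraries numbered 1 and 2 also correlated with each other (0.20 to 0.37), and 8 of 12 libraries had their best partner at their own number, so the check separates number 3 (-0.50 to -0.33 with the others) but not number 1 from number 2. The fit without the block is the main one. Alternatives were library size alone, DESeq2 1.42.0, limma-voom, no filter, a strict filter (1 CPM in all 12 libraries), the block, the compared groups alone, no libraries numbered 3, and leaving out each library.

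The members, lists, named-gene rule and tests were chosen with earlier results of these data known. Named were all 6 members, TRRAP, the 3 genes most like each member by Pearson correlation (mean log2 CPM of at least 1), and, per list and comparison against DMSO, the 2 called genes of smallest adjusted p in the direction with more calls and 1 in the other. Cell type markers, the p53 targets called for the interaction and DINOL were named outside this rule, after their values were seen. Some genes that this rule names are not reported here.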

Additional observations from a re-analysis of the deposited data

How the results depend on the processing

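Of 714 values for single members under the alternatives, 634 kept their direction and side of the threshold, 36 lost a call, 26 gained one and 18 changed sign. None of the 13 called values changed sign in any of 260 such fits. The count of members called with prexasertib against DMSO was 1 in the compared groups alone and 0 to 2 when 1 library was left out, and on top of 5-Ph-IAA it was 1 on library size alone, 1 with limma-voom and 1 to 2 when 1 library was left out. With the replicate block it was 5 for 5-Ph-IAA against DMSO, 5 for both drugs against prexasertib and 1 for the interaction, where it was also 1 without the libraries numbered 3. The block changed no other call than those in the report. Library size alone moved the median log2 fold change of all genes by 0.158 with 5-Ph-IAA, 0.139 under prexasertib and 0.104 for both drugs against DMSO. On that scale CDKN2C was no longer called with 5-Ph-IAA (-0.20, edgeR adjusted p = 0.16) or under prexasertib (-0.17, edgeR adjusted p = 0.25), CDKN3 was not called on top of 5-Ph-IAA (0.53, edgeR adjusted p = 0.093), and CDKN3 for both drugs against DMSO reversed to 0.0055. CDKN1C became called with 5-Ph-IAA (edgeR adjusted p = 0.021) and under prexasertib (edgeR adjusted p = 0.025). The cause of these changes was not tested. The other sign changes were of values near 0 in the fit with all libraries: CDKN2C with prexasertib (-0.053 without the libraries numbered 3, and -0.019 to 0.10 when 1 library was left out), CDKN2D with prexasertib (-0.017 to 0.13 when 1 library was left out), and the interaction of CDKN1C (0.32 without the libraries numbered 3, and -0.21 to 0.23 when 1 library was left out), CDKN1B (-0.15 to 0.031), CDKN2C (-0.033 to 0.12) and CDKN3 (-0.21 to 0.079) over the same fits. Over all genes, higher and lower calls with prexasertib were 346 and 347, against 1227 and 1432 with the block, 1061 and 1033 without the libraries numbered 3, 205 and 152 in the compared groups alone, 295 and 496 on library size alone, and 183 to 385 and 123 to 401 when 1 library was left out. For 5-Ph-IAA against DMSO they were 1414 and 1787, against 2780 and 3465 with the block, 2459 and 2837 without the libraries numbered 3, 3018 and 986 on library size alone and down to 844 and 1248 when 1 library was left out. For both drugs against prexasertib they were 1150 and 1524, in the same order of settings against 2528 and 2913, 1933 and 2565, 2569 and 889, and down to 692 and 1112. For both drugs against 5-Ph-IAA they were 171 and 184, against 1144 and 1128, 911 and 1131, 155 and 335, 312 and 345 with DESeq2, 120 and 64 in the compared groups alone, and down to 102 and 54. For both drugs against DMSO they were 1725 and 2077, against 3111 and 3441, 2564 and 2957, 2696 and 1438, and down to 1157 and 1578. For the interaction they were 0 and 0, against 55 and 41 with the block, 93 and 94 without the libraries numbered 3, and 5 and 0 with DESeq2.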
